A study of Mus musculus with 32 samples.

Results

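The osteoblast lineage transcription factors described here are 9 genes, *Runx2*, *Sp7*, *Dlx3*, *Dlx5*, *Dlx6*, *Msx1*, *Msx2*, *Twist1* and *Twist2*. They were taken by symbol from the 31053 genes of the count matrices, and each symbol matched 1 gene. The data are single-cell RNA-seq (scRNA-seq) counts of BMSC-OBs, which are bone marrow stromal cells of Diversity Outbred mice, a genetically mixed mouse population, grown in culture under osteogenic conditions. Cells of 4 or 5 mice were combined in each of 16 pools before capture. Every pool had the same treatment, a medium with ascorbic acid, β-glycerophosphate and dexamethasone, so the comparisons are between kinds of cells within pools and not between treatments. The labels give no age, and a pool cannot be split here into its mice. The culture limits the model, because the cells called osteocyte-like differentiated in a dish and were freed from the mineralized culture with EDTA, collagenase and trypsin.

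Runx2, a runt-domain protein, is required for osteoblasts to form, and Sp7 (osterix), a zinc-finger protein, acts after it in the same lineage. Dlx and Msx proteins are homeodomain factors of skeletal mesenchyme, and Dlx5 and Dlx6 are neighbouring genes. The Twist proteins are basic helix-loop-helix factors known for holding back osteoblast differentiation, in part by binding Runx2. Adipogenic marrow cells come from the same stromal precursors.

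Run 1 of each pool held between 53990642 and 100777353 unique molecular identifiers (UMIs, each standing for 1 captured mRNA molecule). After filters and doublet removal 84303 cells remained. Marker genes placed 10093 cells in a late mesenchymal progenitor class (LMP-like), 8486 in an osteoblast progenitor class (OBP-like), 9764 in an osteoblast class (OB-like), 5925 in an osteocyte class (Ocy-like) and 7770 in a marrow adipogenic lineage precursor class (MALP-like). None of the 9 genes was a marker. Between 4 and 6 of each class's own markers were among its top 10 genes by fold, and 0 markers of another class were. The same markers placed the cells, so this follows in part from the gate and is no independent test of the classes. The classes are cuts through scores, and between 2.12% (MALP-like) and 8.81% (Ocy-like) of a class's cells lay within 0.1 score units of another class. OB-like cells shared some signal with their neighbours, with a median osteocyte score of 0.95 against 2.36 in Ocy-like cells. Of the OB-like cells, 3560 scored highest for a state called hypoxic here, from 0.244% of them in 1 pool to 74.2% in another. Its markers were *Bsg*, *Ndrg1*, *Ero1l* and *Mt1*, taken for the authors' OB2 osteoblast cluster. The name rests on these genes alone, and hypoxia itself was not tested. Pool 13 stood apart, with a median of 3348 UMIs per cell over its OBP-like, OB-like and Ocy-like cells against 14151 to 29510 in the other pools. Analysed cells of different pools had the same barcode in 958 pairs. Macrophage-like cells (9535) gave the background level of these genes, and whether that level is free RNA alone was not tested.

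The 9 genes lie on 8 chromosomes of GRCm38. *Runx2* spans chr17:44495987-44814797 on the minus strand, *Sp7* chr15:102356606-102367182 on the minus strand and *Dlx3* chr11:95120119-95125296 on the plus strand. *Dlx5* (chr6:6877805-6882085, minus) and *Dlx6* (chr6:6863334-6868568, plus) are neighbours on chromosome 6. *Msx1* spans chr5:37820485-37824583 (minus) and *Msx2* chr13:53466884-53473074 (minus). *Twist1* spans chr12:33957671-33959829 (plus) and *Twist2* chr1:91801461-91848028 (plus). All are protein coding. *Dlx6* lies wholly inside the antisense gene *Dlx6os1* (chr6:6820189-6871592, minus), and reads of both strands are told apart only by the strand of the library.

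RefSeq promoter windows (GRCm38.p6) were at hand for 5 of the 9 genes, and *Sp7*, *Dlx3*, *Dlx5* and *Dlx6* were not among them. The 250 bases before the start of *Twist1*, *Twist2* and *Msx1* are printed because *Twist2* and *Msx1* were highest in MALP-like cells while *Twist1* was highest in LMP-like cells. Capitals mark every match, on either strand, to the E-box CANNTG, the RUNX motif TGTGGT, the homeodomain motif TAATTA or the GC box GGGCGG.

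*Twist1*, chr12:33957421-33957670, plus strand: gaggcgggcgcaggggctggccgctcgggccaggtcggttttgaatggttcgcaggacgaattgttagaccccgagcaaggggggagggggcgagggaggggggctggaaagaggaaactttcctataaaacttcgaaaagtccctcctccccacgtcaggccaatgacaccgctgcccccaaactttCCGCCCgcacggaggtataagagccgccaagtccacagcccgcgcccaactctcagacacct

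*Twist2*, chr1:91801211-91801460, plus strand: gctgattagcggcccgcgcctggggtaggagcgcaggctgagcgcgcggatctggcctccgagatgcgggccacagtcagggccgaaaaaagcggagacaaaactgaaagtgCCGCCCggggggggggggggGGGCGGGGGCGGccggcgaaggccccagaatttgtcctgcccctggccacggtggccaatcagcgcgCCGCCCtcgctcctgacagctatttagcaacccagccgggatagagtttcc

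*Msx1*, chr5:37824586-37824835, minus strand: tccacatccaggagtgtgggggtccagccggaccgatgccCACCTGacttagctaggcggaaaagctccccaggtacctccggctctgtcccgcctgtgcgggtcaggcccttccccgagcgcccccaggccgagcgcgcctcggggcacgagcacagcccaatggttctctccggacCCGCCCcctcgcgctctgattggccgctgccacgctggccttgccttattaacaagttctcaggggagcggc

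The *Twist2* window held 4 GC boxes, and the *Twist1* and *Msx1* windows held 1 each. A GC box was in 32.7% of all 32817 windows of this length. *Msx1* held 1 E-box, a motif found in 66.2% of windows, and neither *Twist* window held any. The *Runx2* window held 1 RUNX motif, which 14.0% of windows hold, and the *Msx2* window held 1 homeodomain motif, which 4.85% hold. Windows were set by RefSeq starts. By the gene coordinates printed above, the *Msx2* window lies wholly inside its gene and the *Runx2* window partly so. The 3 printed windows were 62.4% (*Twist1*), 68.8% (*Twist2*) and 68.0% (*Msx1*) G or C, and the median of all windows was 52.4%. A match is a run of letters and not a shown binding site.

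Levels below are UMIs of a gene per 10000 UMIs of all genes, summed over the cells of 1 class in 1 pool. They depend on what else a class expresses. *Ibsp*, *Col1a1*, *Col1a2*, *Sparc*, *Bglap* and *Bglap2* together took 20.2% ± 3.22 (SD, n = 16 pools) of the UMIs of OB-like cells, 21.9% ± 2.57 of Ocy-like cells and 14.6% ± 1.12 of OBP-like cells. They took 2.41% ± 0.611 in LMP-like cells and 0.733% ± 0.134 in MALP-like cells. Scaled by library size alone, the median gene shifted by -0.37 (log2) in OBP-like against LMP-like cells, by -0.50 in OB-like against LMP-like cells, by 0.24 in MALP-like against LMP-like cells and by 0.77 in MALP-like against OB-like cells. Fold changes are given after TMM scaling (trimmed mean of M values), which is built to bring such medians near 0 and left these within 0.03 of it. A direction that turns under library size is named with its value. How much of the shifts the matrix genes make up was not tested. A fold change is the first class minus the second, on the log2 scale, from edgeR's quasi-likelihood test over 16 pools with the pool as a block, and adjusted p-values are over all genes tested. Counts of pools given with a fold change use TMM-scaled levels and can differ from those on the unscaled levels printed.

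*Runx2* was present in all 5 classes at similar levels. Its level was lowest, median and highest at 0.880, 1.17 and 1.49 per 10000 in LMP-like cells and at 0.947, 1.19 and 1.37 in OBP-like cells. In OB-like cells these values were 0.641, 0.847 and 1.35, and in MALP-like cells 0.908, 1.28 and 1.61. The pools of all 5 classes overlapped, and every one of them lay above the macrophage-like cells, whose highest pool reached 0.322. After TMM scaling *Runx2* was higher in OBP-like than in LMP-like cells by 0.33 ± 0.060 (SE; adjusted p = 3.33e-05), in 16 of 16 pools, although library size alone gave -0.02. It was lower in OB-like than in OBP-like cells by a log2 change of -0.28 ± 0.045 (adjusted p = 1.64e-05), again in 16 of 16 pools, and library size kept that direction. The difference between Ocy-like and OB-like cells, -0.04 with a 95% interval of -0.10 to 0.02, did not pass. It passed as lower in the second run (-0.09, adjusted p = 0.0188) and when classes were set on thinned cells (the thinned gate, -0.10, adjusted p = 0.00801). It also passed as lower with osteoblast markers alone (-0.14, adjusted p = 0.00280), the setting that leaves hypoxic-state cells out of the OB-like class. Library size turned it to 0.06. MALP-like cells were lower than LMP-like cells by -0.14 (adjusted p = 0.0285) and lower than OB-like cells by -0.25 (adjusted p = 0.00150), but library size gave 0.07 and 0.52. The first of these calls was also lost without the pool as a block (-0.14, adjusted p = 0.102) and without the upper limit on genes (-0.05, adjusted p = 0.453). The direction of *Runx2* in these 2 comparisons rested on the scaling, as it did in OBP-like against LMP-like cells. It also did in MALP-like cells against OBP-like cells (-0.52, library size 0.09) and against Ocy-like cells (-0.20, library size 0.45).

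*Sp7* had a clear peak in OBP-like cells and its lowest level in MALP-like cells. The lowest, median and highest pools were 1.10, 1.81 and 2.80 per 10000 in OBP-like cells. They were 0.902, 1.33 and 1.89 in LMP-like cells and 0.359, 0.700 and 1.17 in MALP-like cells. The MALP-like pools overlapped those of LMP-like cells only in part, and the highest macrophage-like pool was 0.259. *Sp7* rose from LMP-like to OBP-like cells by 0.75 ± 0.061 (adjusted p = 2.34e-10), in 16 of 16 pools. It then fell by 0.61 on the log2 scale in OB-like cells, with a log2 change of -0.61 ± 0.050 (adjusted p = 1.83e-09), lower in 16 of 16 pools. The difference between Ocy-like and OB-like cells, 0.09 (adjusted p = 0.121), did not pass, but it did with osteoblast markers alone (0.20, adjusted p = 0.000412) and under library size (0.19, adjusted p = 0.00380). In MALP-like against LMP-like cells *Sp7* was lower by -1.17 ± 0.073 (adjusted p = 5.20e-12), lower in 16 of 16 pools, and no setting turned this. The difference between OB-like and LMP-like cells, 0.12 with an interval of -0.01 to 0.24, did not pass. It passed as higher without the upper limit on genes (0.21, adjusted p = 0.00981) and with the thinned gate (0.17, adjusted p = 0.0215), and as lower under library size (-0.35, adjusted p = 0.000123).

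**Figure D1:**
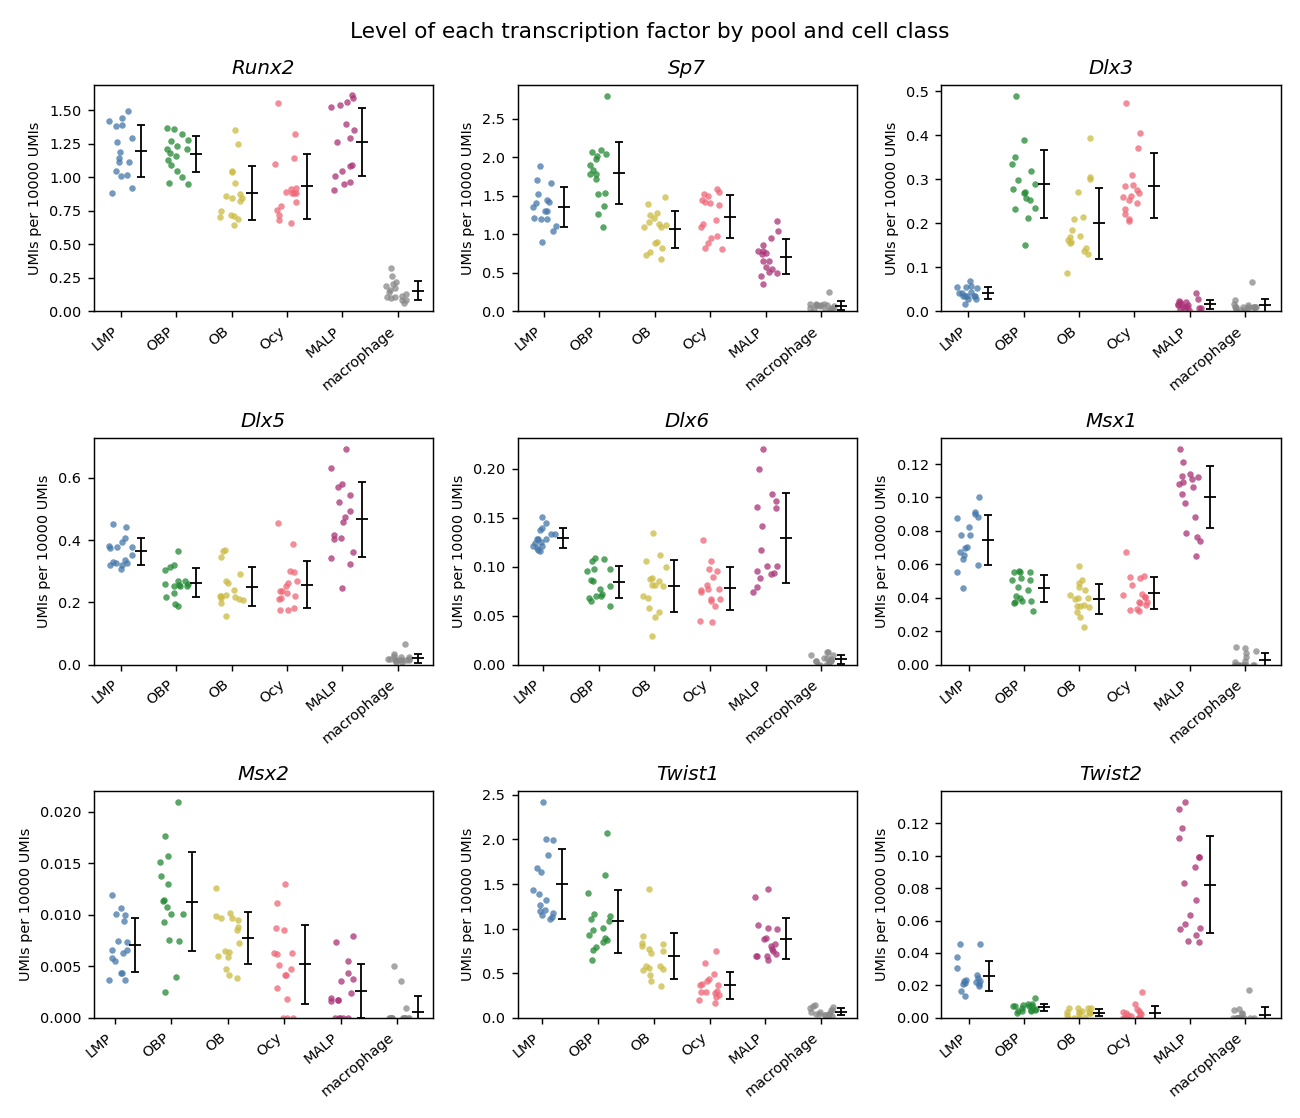
UMIs per 10000 UMIs of each gene (vertical axes, each starting at 0 and with its own range) in the 5 mesenchymal classes and in macrophage-like cells. Each point is 1 of 16 pools, and the black bars are the mean ± SD. *Dlx3* is high in OBP-like, OB-like and Ocy-like pools, *Twist2* is high in MALP-like pools, and *Twist1* has its highest pool, 2.42, in LMP-like cells and its lowest median, 0.336, in Ocy-like cells among the 5 classes.

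*Dlx3* separated the classes most sharply among the Dlx genes. Its lowest, median and highest pools were 0.0166, 0.0386 and 0.0688 per 10000 in LMP-like cells. In OBP-like cells they were 0.151, 0.275 and 0.490, so the 2 groups did not overlap. In OB-like cells they were 0.0874, 0.170 and 0.395, and in Ocy-like cells 0.206, 0.266 and 0.474. MALP-like cells, at 0.0162 ± 0.00978 (SD, n = 16 pools), were at the level of macrophage-like cells, 0.0141 ± 0.0151. By this measure their *Dlx3* cannot be told from that background. Per cell, without regard to depth, the means were 0.0175 ± 0.00997 UMIs in MALP-like and 0.00776 ± 0.00703 in macrophage-like cells. The gene rose by 3.19 ± 0.11 from LMP-like to OBP-like cells, which is 9.11-fold (adjusted p = 1.81e-16), in 16 of 16 pools. It was lower in OB-like than in OBP-like cells by -0.37 ± 0.10 (adjusted p = 0.00394) in 14 of 16 pools, and higher again in Ocy-like than in OB-like cells by 0.40 ± 0.078 (adjusted p = 0.000157) in 14 of 16 pools. Ocy-like and OBP-like cells were not told apart, at 0.05 with an interval of -0.09 to 0.19, and library size gave -0.01. MALP-like cells were lower than LMP-like cells by -1.59 ± 0.18 (adjusted p = 5.24e-08). With MALP-like *Dlx3* at the background level per 10000, the size of this difference cannot be fixed.

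*Dlx5* was spread over all classes with small differences. Its mean was 0.364 ± 0.0443 per 10000 (SD, n = 16 pools) in LMP-like, 0.263 ± 0.0463 in OBP-like, 0.250 ± 0.0622 in OB-like, 0.256 ± 0.0754 in Ocy-like and 0.467 ± 0.120 in MALP-like cells. The pools of all 5 classes overlapped. After TMM scaling no neighbouring pair of classes in the order of levels passed the test, from MALP-like through LMP-like, OB-like and OBP-like to Ocy-like cells. OBP-like minus LMP-like was -0.13 (adjusted p = 0.0587) and MALP-like minus LMP-like was 0.13 (adjusted p = 0.129), and both passed under library size, at -0.48 and 0.34. The first also passed in the second run (-0.19, adjusted p = 0.00426), with no filter (-0.15, adjusted p = 0.0321), with doublets kept (-0.13, adjusted p = 0.0428) and with the thinned gate (-0.15, adjusted p = 0.0281). The second also passed without the upper limit on genes (0.21, adjusted p = 0.0159). OB-like minus LMP-like, -0.10 after TMM scaling, passed under library size (-0.57, adjusted p = 2.15e-07). OB-like minus OBP-like passed with osteoblast markers alone (0.17, adjusted p = 0.0382), and MALP-like minus OB-like passed in the joint fit of all classes (0.19, adjusted p = 0.0220) and under library size (0.90). Ocy-like minus OB-like passed as lower in the second run (-0.12, adjusted p = 0.0385) and with osteoblast markers alone (-0.17, adjusted p = 0.0266). Of the comparisons between classes farther apart, 3 passed. MALP-like cells were higher than OBP-like cells by 0.22 (adjusted p = 0.0199), in 11 of 16 pools, a call lost under 1 alternative. They were higher than Ocy-like cells by 0.23 (adjusted p = 0.0423), and Ocy-like cells were lower than LMP-like cells by -0.17 (adjusted p = 0.0333), each lost under 5 alternatives.

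*Dlx6* followed at a lower count. Its mean was 0.129 ± 0.00992 per 10000 in LMP-like cells, with a lowest pool of 0.116 and a highest of 0.151, a ratio of 1.31 that was the smallest among the 9 genes in that class. *Dlx6* was lower in OBP-like than in LMP-like cells by -0.30 ± 0.069 (adjusted p = 0.000473), in 12 of 16 pools, and lower in Ocy-like than in LMP-like cells by -0.37 ± 0.088 (adjusted p = 0.000595), in 15 of 16 pools. The OB-like value of -0.21 against LMP-like cells (adjusted p = 0.0460) lost its call under 7 alternatives. MALP-like minus LMP-like was -0.23 (adjusted p = 0.0539) and did not pass, but it passed under 8 alternatives, with values of -0.37 to -0.23. The antisense *Dlx6os1* was at 0.0181 ± 0.00347 in LMP-like and 0.0303 ± 0.00847 in MALP-like cells, below *Dlx6* in both.

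*Msx1* was highest in MALP-like cells, at 0.100 ± 0.0186 per 10000 (SD, n = 16 pools), followed by LMP-like cells at 0.0745 ± 0.0149. OBP-like, OB-like and Ocy-like cells were at 0.0456 ± 0.00812, 0.0395 ± 0.00902 and 0.0427 ± 0.00957, and after TMM scaling no pair of these 3 classes passed the test. OB-like minus OBP-like, -0.08 after TMM scaling, passed as lower under library size (-0.23, adjusted p = 0.0289). *Msx1* was lower in OBP-like than in LMP-like cells by -0.33 ± 0.073 (adjusted p = 0.000340) in 13 of 16 pools. It was higher in MALP-like than in OB-like cells by 0.61 ± 0.11 (adjusted p = 5.88e-05) in 15 of 16 pools. The step from LMP-like to MALP-like cells, 0.24 (adjusted p = 0.0159), lost its call under 5 alternatives, with values of 0.15 to 0.20.

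*Msx2* was close to the limit of these libraries, with 556 UMIs over the 5 classes. OBP-like cells held 225 of its UMIs and a level of 0.0113 ± 0.00477 per 10000. LMP-like cells were at 0.00710 ± 0.00261, and 5 of 16 MALP-like pools held 0 UMIs. *Msx2* passed the count filter in 2 of the 10 comparisons. It was higher in OBP-like than in LMP-like cells by 1.14 ± 0.17 (adjusted p = 2.73e-06), in 14 of 16 pools. OB-like minus OBP-like was -0.39 (adjusted p = 0.0804).

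*Twist1* and *Twist2* differed in where they were high. *Twist1* ran from 1.11 to 2.42 per 10000 in LMP-like pools, with a median of 1.36, and from 0.653 to 2.07 in OBP-like pools, with a median of 0.999. In OB-like pools it ran from 0.356 to 1.44 with a median of 0.654, and in Ocy-like pools from 0.161 to 0.747 with a median of 0.336. The 4 medians fall in the order LMP-like, OBP-like, OB-like, Ocy-like, although neighbouring classes overlap. Pools differ widely within a class. Pool 6 was the highest in OBP-like, OB-like and Ocy-like cells, and pool 4 in LMP-like and MALP-like cells. *Twist1* was lower in OB-like than in OBP-like cells by -0.51 ± 0.075 (adjusted p = 6.31e-06) in 15 of 16 pools. It was lower in Ocy-like than in OB-like cells by -1.07 ± 0.051, a 2.09-fold difference (adjusted p = 8.82e-14), in 16 of 16 pools. Ocy-like against LMP-like cells gave -1.72 ± 0.093, or 3.29-fold (adjusted p = 2.56e-13), and after TMM scaling the pools of these 2 classes did not overlap. The first step, OBP-like minus LMP-like, was small at -0.14 (adjusted p = 0.0185) and did not pass in 4 alternatives, with adjusted p of 0.108 to 0.411. In MALP-like against LMP-like cells *Twist1* was lower by -0.96 ± 0.048 (adjusted p = 1.42e-13) in 16 of 16 pools. Against OB-like cells MALP-like cells were lower by -0.38 (adjusted p = 0.00153), while library size gave 0.39.

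*Twist2* was found mostly in MALP-like and LMP-like cells. Its lowest, median and highest pools were 0.0466, 0.0778 and 0.133 per 10000 in MALP-like cells and 0.0135, 0.0227 and 0.0456 in LMP-like cells. OBP-like cells were at 0.00649 ± 0.00233, and OB-like and Ocy-like cells, with 61 and 21 UMIs in all, were at 0.00314 ± 0.00225 and 0.00303 ± 0.00419, near the 0.00200 ± 0.00440 of macrophage-like cells. Within OB-like cells of 14 pools *Twist2* was 0.00900 ± 0.0103 in hypoxic-state cells and 0.00127 ± 0.00176 in the others, higher in 12 of 14 pools, on these few UMIs. *Twist2* was higher in MALP-like than in LMP-like cells by 1.41 ± 0.11, or 2.66-fold (adjusted p = 4.02e-10), in 16 of 16 pools. It was lower in OBP-like than in LMP-like cells by -1.52 ± 0.16, or 2.86-fold (adjusted p = 1.63e-08), in 16 of 16 pools. Between MALP-like and OB-like cells the difference was 3.71 ± 0.25 (adjusted p = 2.32e-11), and the pools did not overlap. *Twist2* failed the count filter in the comparisons of OB-like or Ocy-like with OBP-like cells and of Ocy-like with OB-like cells.

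**Figure D2:**
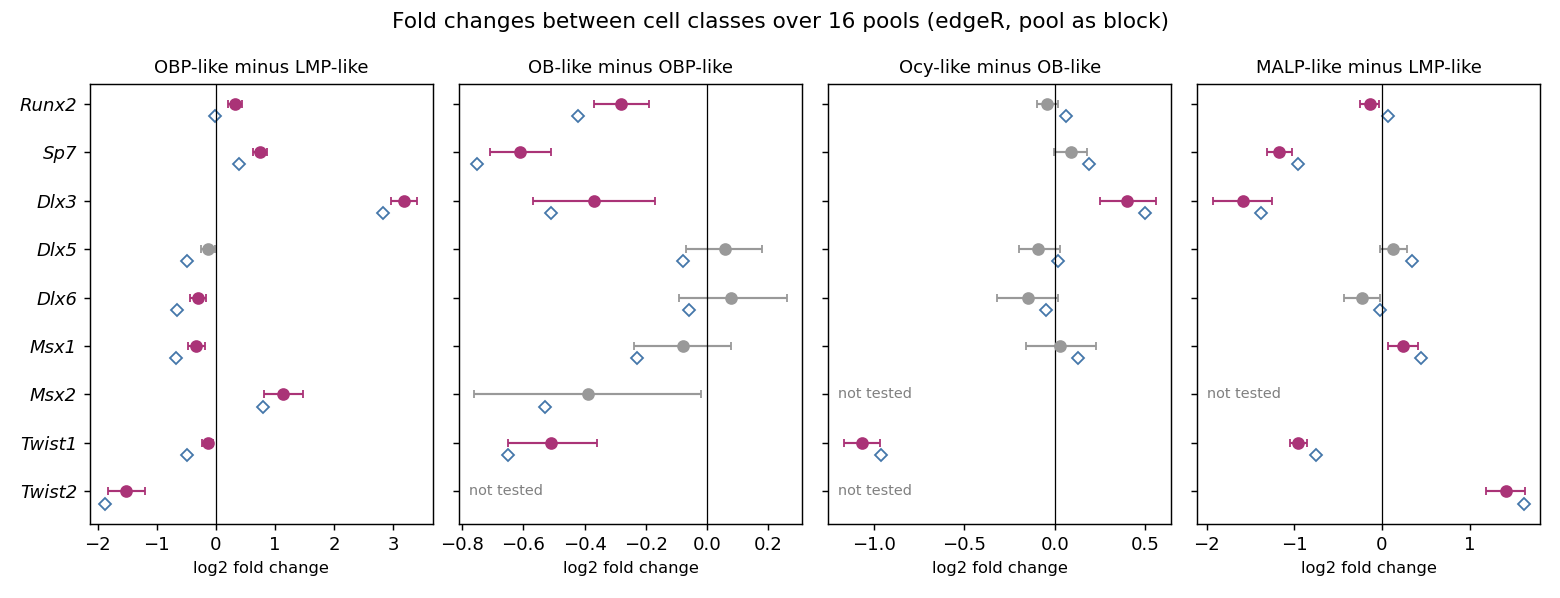
Log2 fold changes of the 9 genes in 4 comparisons of classes (horizontal axes, each with its own range), as filled circles with 95% intervals from edgeR over 16 pools. Filled circles in purple passed an adjusted p of 0.05 and those in grey did not, and open diamonds are the values under library size alone. *Dlx3* moved by 3.19 in OBP-like against LMP-like cells and *Twist1* by -1.07 in Ocy-like against OB-like cells.

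Most genes differ between these classes, so the number of the 9 that passed is read against all genes tested. In OBP-like against LMP-like cells 8 of 9 passed, 4 higher and 4 lower, where 78.3% of all genes passed. In OB-like against OBP-like cells 4 of 8 tested passed, 4 lower and 0 higher, where 57.0% of genes passed. With osteoblast markers alone this was 6 of 7, where 52.4% of genes passed, and *Dlx5* (0.17) and *Dlx6* (0.28) then passed as higher. In Ocy-like against OB-like cells 2 of 7 passed, *Dlx3* and *Twist1*, where 49.1% of genes passed. That count was 5 of 7 in the second run, where 48.8% of genes passed. It was 6 of 7 with osteoblast markers alone (hypoxic-state cells left out), where 46.2% passed. In MALP-like against LMP-like cells 6 of 8 passed with a background of 73.6%, and in MALP-like against OB-like cells 6 of 8 with a background of 77.9%. OB-like against LMP-like cells gave 5 of 8 with 78.5%, Ocy-like against LMP-like cells 7 of 8 with 78.9% and Ocy-like against OBP-like cells 3 of 7 with 67.2%. MALP-like cells gave 7 of 8 against OBP-like cells, with 81.7%, and 7 of 8 against Ocy-like cells, with 79.1%. The 10 comparisons share classes and are not independent of one another.

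Detection per cell was compared after every cell was thinned to 4000 UMIs, which left out 684 LMP-like, 676 OBP-like, 1439 OB-like, 624 Ocy-like, 713 MALP-like and 2974 macrophage-like cells that were shallower. A UMI of *Sp7* was found in 47.6% ± 6.64 (SD, n = 16 pools) of OBP-like cells, 38.7% ± 5.76 of LMP-like cells and 23.4% ± 6.84 of MALP-like cells, against 2.03% ± 1.01 of macrophage-like cells. Without thinning these shares were 83.3%, 74.3%, 39.9% and 3.63%. *Runx2* was found in 36.2% ± 5.03 of LMP-like, 37.1% ± 4.71 of OBP-like and 36.8% ± 5.63 of MALP-like cells. It was found in 29.1% ± 5.24 of OB-like, 30.6% ± 6.22 of Ocy-like and 5.53% ± 1.79 of macrophage-like cells. Thinning makes total UMIs equal without TMM scaling, so all these shares depend on what else a class expresses. After TMM scaling *Runx2* was lower in MALP-like than in OBP-like cells by -0.52, and OB-like minus LMP-like (0.03) did not pass. *Twist1* was found in 40.6% ± 6.61 of LMP-like cells and 11.8% ± 5.33 of Ocy-like cells, with 2.27% ± 1.39 in macrophage-like cells.

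*Dlx3* was found in 11.5% ± 3.15 of OBP-like and 11.7% ± 3.87 of Ocy-like cells, 1.80% ± 0.623 of LMP-like cells, and 0.507% ± 0.395 of MALP-like cells, where macrophage-like cells gave 0.559% ± 0.625. *Dlx5* was found in 9.31% ± 2.70 of OB-like and 14.0% ± 2.21 of LMP-like cells, against 0.885% of macrophage-like cells, and its mean share was highest in MALP-like cells. *Twist2* was found in 2.93% ± 1.25 of MALP-like cells and 1.01% ± 0.534 of LMP-like cells. In OB-like and Ocy-like cells its shares, 0.119% and 0.123%, were within the spread of the 0.0891% ± 0.220 in macrophage-like cells. *Msx1* was found in 4.18% ± 0.992 of MALP-like cells, and *Msx2* in 0.439% ± 0.346 of OBP-like cells at most. At this depth a gene found in few cells may still be expressed in many.

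**Figure D3:**
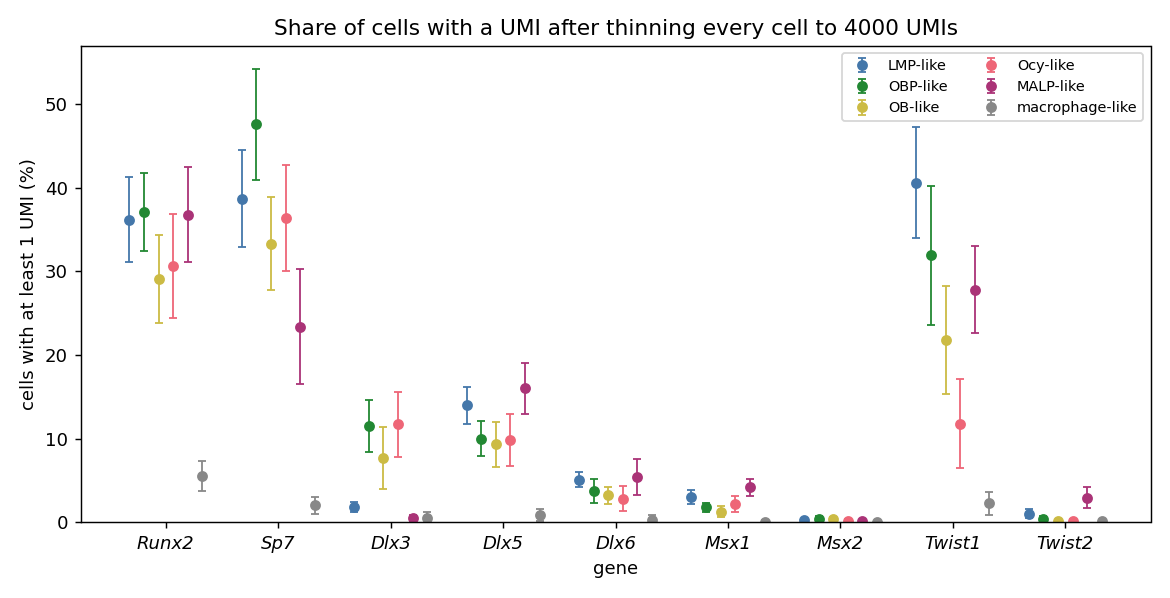
Share of cells with at least 1 UMI of each gene (vertical axis, percent) after thinning to 4000 UMIs, by class (colour). Points are means over 16 pools and bars are the SD. *Runx2*, *Sp7* and *Twist1* reach 37.1%, 47.6% and 40.6% in their highest class, and the grey macrophage-like points are the background level.

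Runx2 and Sp7 act in the same lineage, and their UMIs were counted in the same thinned cells. In MALP-like cells 49.8% ± 6.74 (SD, n = 16 pools) of the cells with an *Sp7* UMI also held a *Runx2* UMI, against 32.7% ± 5.37 of those without, higher in 16 of 16 pools. In LMP-like cells the shares were 41.5% ± 6.03 and 32.6% ± 4.45, higher in 15 of 16 pools. The gap was smaller in Ocy-like cells, 32.6% ± 6.69 against 29.4% ± 6.47, higher in 12 of 16 pools. Cells with a *Dlx6* UMI held a *Dlx5* UMI in 22.1% ± 8.36 of cases in LMP-like cells, against 13.6% ± 2.07 of the cells without, higher in 14 of 16 pools. The shares were 16.4% ± 13.0 and 9.04% ± 2.65 in OB-like cells (higher in 13 of 16 pools), 22.5% ± 14.9 and 15.5% ± 2.80 in MALP-like cells (11 of 16) and 11.6% ± 11.0 and 9.89% ± 2.13 in OBP-like cells (9 of 16). In Ocy-like cells the order was the other way, 5.37% ± 5.55 against 9.93% ± 3.11, higher in 3 of 16 pools. There *Dlx6* was found in only 2.81% ± 1.47 of thinned cells and both genes in 0.187% ± 0.205. Few cells per pool thus carry the Ocy-like share, and the order may not hold. For *Sp7* with *Twist1* in OB-like cells the shares were 32.6% ± 8.62 and 33.4% ± 5.68, higher in 7 of 16 pools. The share with *Twist1* was the higher in 13 of 16 pools in MALP-like cells and in 9 or 10 of 16 pools in the other classes. These shares are descriptions with no test.

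Other genes of the same pathways were counted from 4 lists. Of 16 target genes of Runx2, Sp7 or Dlx5, 14 were higher and 2 lower in OBP-like than in LMP-like cells, with a median of 2.31 where the median of all genes was -0.02. Of all genes tested there, 37.9% were higher and 40.4% lower. The 3 that moved most were *Dmp1* (5.54), *Bglap* (4.43) and *Bglap2* (4.07). These and *Ibsp*, also among the 16, are markers of the classes, so the gate partly set the counts and medians of this list. In MALP-like against LMP-like cells 14 of the 16 were lower, among them *Pdpn* (-2.82), *Col1a1* (-2.39) and *Col5a1* (-2.36). Of 25 partners and modifiers of Runx2, Sp7 and Twist, 24 were tested in OBP-like against LMP-like cells, 10 were higher and 11 lower, with a median of 0.02, near the shares over all genes. *Id4*, a partner of helix-loop-helix factors, was lower by -3.08. Of 18 other lineage factors, 17 were tested in MALP-like against LMP-like cells. Of these, 13 were higher, among them the adipogenic *Cebpa* (3.30) and *Pparg* (2.93), and 3 were lower, with *Tcf7* at -3.34. Their median was 1.44 where that of all genes was 0.03, and 38.8% of all genes were higher and 34.8% lower in that comparison. Of 16 other patterning genes, all of them homeobox genes except the T-box gene *Tbx15* (-0.77, lower), 12 were tested in OBP-like against LMP-like cells, 4 were higher and 7 lower, with *Satb1* (3.49), *Prrx2* (-2.28) and *Meis2* (-1.12) the largest.

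The genes whose pattern was most like each factor were taken over the 80 sums of 16 pools and 5 classes among 12495 genes, by Pearson r of log2(CPM + 10). They were *Rnf144b* (0.968), *Galnt3* (0.958) and *Sorcs2* (0.958) for *Dlx3*, and *Apbb1ip* (0.949), *B4galt4* (0.945) and *Npr3* (0.944) for *Twist2*. For *Sp7* they were *Myo9b* (0.899), *Morf4l2* (0.899) and *Unc5b* (0.890). *Twist1* was most like *Omd* (0.819), *Prrx1* (0.807) and *Ccnd1* (0.806), and for *Msx1* values were 0.736 (*Sod3*) and 0.720 (*Col4a2*). *Runx2* gave *Max* (0.764), *Srgap2* (0.757) and *Sytl4* (0.738). *Dlx5* and *Dlx6* had no close match, with highest values of 0.606 (*Ltv1*) and 0.531 (*Arf2*). *Msx2* had too few counts to enter. The sums share pools and classes, so these values are descriptions.

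Whether pairs of these factors moved together from pool to pool was asked for 6 pairs in LMP-like and OB-like cells, 12 tests in all, on log2(CPM + 10). *Msx2* (chi-square per degree of freedom 1.06 in LMP-like and 0.956 in OB-like cells) spread over pools about as counting alone would. So did *Twist2* in OB-like cells (1.18). Pairs with them that did not pass therefore say little. Only *Dlx3* with *Dlx5* in OB-like cells passed after adjustment, and in opposite directions. Pearson r was -0.750 (permutation p = 0.00118, adjusted p = 0.0142) and Spearman rho -0.821 (permutation p = 0.000320, adjusted p = 0.00384) over 16 pools. Without pools 10 and 18, farthest from the median of *Dlx3*, r was -0.777. After TMM scaling *Dlx3* was highest in pool 10, at 0.471 per 10000, where *Dlx5* was 0.256. *Dlx5* was highest in pool 1, at 0.401, where *Dlx3* was 0.170. *Dlx3* was lowest in pool 18, at 0.108, where *Dlx5* was 0.360, from 55 OB-like cells with 9 *Dlx3* UMIs. In LMP-like cells r of this pair was -0.0679 (permutation p = 0.810). *Dlx5* with *Dlx6*, the neighbouring pair, had r = 0.635 in LMP-like cells (permutation p = 0.00982, adjusted p = 0.0550) and fell to 0.471 without pools 10 and 18. *Runx2* with *Dlx5* in OB-like cells had r = 0.595 (permutation p = 0.0138, adjusted p = 0.0550) and fell to 0.340 without pools 1 and 2. *Runx2* with *Sp7* had r = 0.442 in LMP-like cells (permutation p = 0.0889, adjusted p = 0.213) and 0.271 in OB-like cells (permutation p = 0.309, adjusted p = 0.412).

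The share of hypoxic-state cells among OB-like cells moved with both genes, although pool 18, with 49.1% such cells, had the lowest *Dlx3*. Over 16 pools its r was 0.695 with *Dlx3* (permutation p = 0.00266, adjusted p = 0.0108 over 8 tests) and -0.699 with *Dlx5* (permutation p = 0.00270, adjusted p = 0.0108). The log2 median UMIs per OB-like cell gave -0.166 with *Dlx3* (permutation p = 0.538, adjusted p = 0.718) and 0.380 with *Dlx5* (permutation p = 0.148, adjusted p = 0.396). When hypoxic-state cells were left out of the OB-like class (osteoblast markers alone), an alternative chosen after the data were seen, r of *Dlx3* with *Dlx5* was -0.732 (permutation p = 0.00192, adjusted p = 0.00768 over 4 tests). In the other classes it was 0.0689 (OBP-like), -0.293 (Ocy-like, permutation p = 0.257) and -0.179 (MALP-like, permutation p = 0.504), and none of the 3 passed, the smallest adjusted p being 0.513. Within 14 pools with at least 20 cells of each kind, *Dlx3* was 0.256 ± 0.0882 per 10000 in hypoxic-state cells and 0.166 ± 0.0660 in the other OB-like cells, higher in 13 of 14 pools. *Dlx5* was 0.188 ± 0.0516 and 0.253 ± 0.0756, higher in 5 of 14 pools, and *Sp7* was 1.19 ± 0.240 and 0.933 ± 0.226, higher in 14 of 14 pools. The pool, its mice and its culture cannot be told apart.

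**Figure D4:**
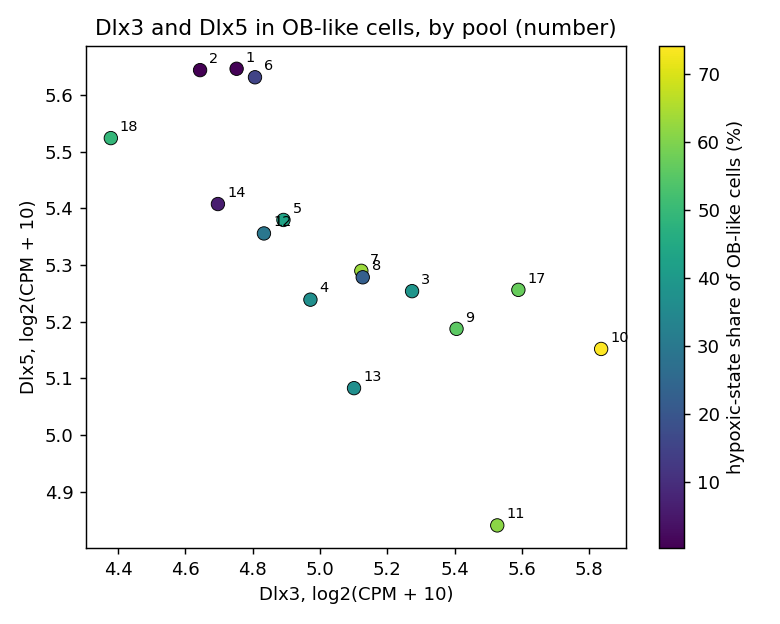
*Dlx3* against *Dlx5* in OB-like cells, both as log2(CPM + 10) after TMM scaling, with 1 numbered point per pool. The colour is the percent of OB-like cells in the hypoxic state. Pools 1 and 2, with 0.746% and 0.244% hypoxic-state cells, have high *Dlx5*, and pool 10, with 74.2%, has the highest *Dlx3*. Pool 18, with 49.1% but only 55 OB-like cells, has the lowest *Dlx3*.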

How the data were processed

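scRNA-seq was done on 16 pools of BMSC-OBs, each sequenced in 2 runs (32 samples). The authors counted reads with Cell Ranger 5.0.0 against GRCm38 (mm10 in the submitters' processing notes), using the 10x Single Cell 3′ chemistry, and deposited UMI counts per gene and barcode, not normalized. The authors' later steps, which filtered cells, took out doublets and told the mice of a pool apart, are not in these counts. Reads were aligned to the reference without the founders' variants, so a variant in a read can lower a count. The annotation release is not given in the sources used here, and coordinates are from GENCODE M21 by gene identifier.

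The runs of a pool came from the same droplets (98.2% of run 1 barcodes were shared in all, 84.5% in pool 13 and at least 98.2% in each other pool), so run 1 was analysed and run 2 was an alternative. Total counts were 53990642 to 100777353 UMIs per pool. Cells with 400 to 6200 genes were kept if mitochondrial UMIs were at most 10%, those of Rpl genes at most 20% and those of Rps genes at most 15% (88909 of 107853 barcodes). A neighbour-based caller on simulated doublets removed 4606 of them (5.18%). A cell took the class of its highest marker score if that score was at least 1 SD above the mean of all cells, with at least 3 markers and 2000 UMIs. Hypoxic-state cells joined the OB-like class at an osteoblast score of at least 0.5. This placed 42038 cells in the 5 mesenchymal classes. The other cells were of other types or took no class.

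Counts were summed per pool and class where at least 20 cells were present and tested with edgeR 4.0.16 in R 4.3.3 (filterByExpr, TMM, quasi-likelihood, Benjamini-Hochberg, threshold 0.05), with the pool as a block since both classes of a pool come from the same mice and droplets. As a check, deviations from class means correlated between classes of the same pool, with medians of 0.265 to 0.611 and a lowest value of 0.0728, against medians near 0 between different pools. Pools are replicates of mice and culture together. Intervals are 95% and approximate (normal, from the SE). Correlations across pools used 100000 permutations, two-sided, in scipy 1.17.1. CPM are edgeR's, TMM-scaled. Scripts were tested on simulated data.

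Named genes were all 9 factors, the 3 genes of each list with the largest change among those that passed in the comparison described, and the 3 genes most like each factor, and some genes this rule names are not reported here. The members and lists were chosen with earlier results of these data known. Alternatives were the second run, other scalings, DESeq2 1.42.0, no filter, no block, 1 joint fit, other gates, doublets kept, no upper limit on genes, at least 50 cells and leaving out pool 13. Library size alone and osteoblast markers alone were added after the data were seen. The latter keeps the gate and leaves hypoxic-state cells out of the OB-like class.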

Additional observations from a re-analysis of the deposited data

Results flagged for a closer look

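*Twist2* in T-cell-like cells of pool 6 was 0.0120 per 10000, from 1 UMI, while the 3 other pools with at least 20 such cells held 0 UMIs. With the other pools at 0, any single UMI sets a pool apart, so this value shows no difference in *Twist2*. In all, 8 such groups of 4 pools were examined, and chance sets a sample apart in about 1 of 20 groups.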

How the results depend on the processing

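Of 55 fold changes that passed, 48 kept their direction and call under every alternative that tested them other than library size alone, and 42 under all that did. An alternative that did not test a gene was not counted against it. The joint fit did not test *Msx2*, whose call in OBP-like minus LMP-like cells is among the 55. None of the 55 reversed except under library size, where *Runx2* gave -0.02 (OBP-like minus LMP-like), 0.07 (MALP-like minus LMP-like), 0.52 (MALP-like minus OB-like), 0.09 (MALP-like minus OBP-like) and 0.45 (MALP-like minus Ocy-like), *Twist1* 0.39 (MALP-like minus OB-like) and *Sp7* -0.15 (Ocy-like minus LMP-like). TMM is built to bring the median gene near 0, so these values do not show which direction is right. The median gene shifts under library size. Values that had not passed and reversed under it were *Runx2* 0.06 (Ocy-like minus OB-like) and -0.45 (OB-like minus LMP-like), *Sp7* -0.35 (OB-like minus LMP-like), *Dlx3* -0.01 (Ocy-like minus OBP-like), *Dlx5* -0.08 (OB-like minus OBP-like), 0.02 (Ocy-like minus OB-like) and -0.05 (Ocy-like minus OBP-like), and *Dlx6* -0.06 (OB-like minus OBP-like), 0.65 (MALP-like minus OB-like) and 0.61 (MALP-like minus OBP-like). Of the 24 fold changes that had not passed, 12 passed under at least 1 other alternative and 9 reversed under one, the latter with values near 0. *Msx1* in OB-like minus OBP-like cells gave 0.06 (second run) and 0.0018 (stricter gate). In Ocy-like minus OB-like cells it gave -0.07 (second run), -0.0025 (no block), -0.0022 (joint fit) and -0.01 (stricter gate and thinned gate), and in Ocy-like minus OBP-like cells 0.0020 (second run). *Runx2* in OB-like minus LMP-like cells gave -0.01 (no filter), and in Ocy-like minus LMP-like cells 0.0040 (no block), 0.0038 (doublets kept), 0.08 (no upper limit) and 0.02 (without pool 13). In Ocy-like minus OBP-like cells *Dlx5* gave -0.01 (second run, DESeq2 and its size factors), -0.02 (no filter and thinned gate) and -0.03 (joint fit), and *Dlx3* -0.01 (joint fit). *Dlx6* in MALP-like minus OBP-like cells gave 0.01 (DESeq2 size factors and without pool 13), 0.03 (no block) and 0.04 (joint fit and no upper limit), and in MALP-like minus Ocy-like cells -0.01 (doublets kept and stricter gate). The cause was not tested. The number of factors that passed moved from 2 to 5 (second run) and 6 (osteoblast markers alone) in Ocy-like against OB-like cells. In OB-like against OBP-like cells it moved from 4 of 8 to 6 of 7 (osteoblast markers alone, where 52.4% of all genes passed) and 6 of 8 (library size, 61.4%). It moved from 5 to 8 of 8 (library size, where 85.5% of all genes passed) in OB-like against LMP-like cells. In Ocy-like against OBP-like cells it moved from 3 of 7 to 5 of 9 (no filter, where 37.8% of all genes passed). At least 50 cells per sum left the same sums. The correlation of *Twist1* with *Twist2* turned to -0.00732 (without pool 13) and -0.000631 (doublets kept) in LMP-like cells and to -0.124 (second run) in OB-like cells.

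Without the pool as a block, 7 of 9 factors passed in OBP-like against LMP-like cells, where 69.3% of all genes did. The counts of the other comparisons stayed within 1.5 times, but the shares over all genes fell. In Ocy-like against OB-like cells 2 of 7 passed, where 24.9% of all genes did (49.1% with the block). OB-like against OBP-like cells gave 5 of 8 with 39.8%, and Ocy-like against OBP-like cells 3 of 7 with 54.8%. *Twist1* in OBP-like minus LMP-like cells had an adjusted p of 0.411 without the block. Leaving out pool 13 ended the calls of *Dlx6* in OB-like minus LMP-like cells (-0.21), *Dlx5* in Ocy-like minus LMP-like cells (-0.15) and *Dlx5* in MALP-like minus Ocy-like cells (0.22). *Msx2* in OB-like minus OBP-like cells (-0.45) then passed, as it did without the block (-0.51), and so did *Dlx6* in MALP-like minus LMP-like cells (-0.23), which also passed under 7 others (-0.37 to -0.25). Shares of cells depend on depth: all 45 moved by more than the SD between pools without thinning and 31 of 45 at 2000 UMIs, and all 45 stayed within it in the second run. *Msx2* and *Twist2* are limited by their counts.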

Other observations

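T-cell-like cells, which were not part of the comparisons, held *Runx2* at 0.994 ± 0.152 per 10000 (SD, n = 4 pools), from 0.843 to 1.18, where macrophage-like cells held 0.156 ± 0.0712 (n = 16 pools). *Sp7* in the same T-cell-like cells was 0.142 ± 0.119, from 28 UMIs in all, and *Twist1* was 0.192 ± 0.117. After thinning, *Runx2* was found in 33.4% ± 10.1 of T-cell-like cells in 3 pools with at least 20 deep enough cells.

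*Runx2os1*, an antisense gene within *Runx2*, was at 0.0725 ± 0.0187 per 10000 (SD, n = 16 pools) in MALP-like cells, 0.0322 ± 0.00796 in LMP-like cells and 0.0219 ± 0.00617 in OBP-like cells, each far below *Runx2* itself. *Msx1* in hypoxic-state OB-like cells was 0.0473 ± 0.0143 per 10000 (n = 14 pools) and 0.0339 ± 0.0109 in the other OB-like cells, higher in 12 of 14 pools, and *Dlx6* was 0.0619 ± 0.0163 and 0.0864 ± 0.0305, higher in 3 of 14 pools. *Runx2* was 0.743 ± 0.112 and 0.870 ± 0.148, also higher in 3 of 14 pools, *Msx2* was 0.00573 ± 0.00553 and 0.0111 ± 0.00590, higher in 2 of 14, and *Twist1* was 0.629 ± 0.171 and 0.684 ± 0.299, higher in 6 of 14. These values were not tested.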
